A study of Sus scrofa with 6 samples.

Results

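The genes described here add or remove chemical marks on histones, methylate DNA, or escort histones to and from DNA. They were found by matching the single gene symbol that the array platform's annotation gives each probe set to a fixed set of name patterns, such as HDAC, SIRT, KDM, KMT, KAT, PRMT, DNMT, NAP1L, ASF1 and ANP32. This gave 81 probe sets of 49 genes among 23999 probe sets that are not array controls, of which 10069 have a single symbol. The choice used names and no measured value, but earlier results of these data were known when it was made. RNA came from metaphase II oocytes, eggs awaiting fertilization, of adult female pigs (sows) and prepubertal female pigs (gilts). Each group had 3 Affymetrix porcine arrays, which the labels call biological replicates, and the labels describe adult oocytes as competent to develop and prepubertal ones as incompetent. All oocytes of both groups came from follicles of 2 to 6 mm, were matured in culture for 42 to 44 h, were freed of cumulus cells with hyaluronidase and vortexing, and were checked for a polar body. How many animals or oocytes lie behind an array is not stated, so every p-value here rests on the spread of these arrays alone, and no strain or exact age is given. In such bulk material, fewer oocytes and less mRNA in each oocyte cannot be told apart.

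Histone tails carry acetyl and methyl groups that alter how tightly DNA is packed and which proteins bind it. Writers such as acetyltransferases (KAT genes, HAT1) and methyltransferases (KMT, SETD, SUV, PRMT and EZH genes) add these groups, and erasers such as deacetylases (HDAC and SIRT genes) and demethylases (KDM genes) remove them. Histone chaperones bind free histones and hand them to DNA. A mature oocyte does not transcribe, and it stores mRNAs and proteins with which the egg rebuilds the sperm's chromatin after fertilization and packs the DNA of the early embryo.

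Values are MAS5 signals, the brightness of a probe set on a linear scale, and signals of different probe sets are not on one scale. The arrays were not at one overall level. Their 2% trimmed mean signal lay between 123 and 161 in adult and between 106 and 132 in prepubertal samples, or −0.27 in log2 units. The p was 0.2 in a 2-sided exact permutation test that cannot go below 0.1 and takes no account of replicate numbers. The median log2 difference of the 12000 tested probe sets was −0.20, and quantile normalization, which gives every array the same distribution of values, moved it to −0.0073. Differences of the members are therefore given as deposited and with quantile normalization, and a difference near −0.20 as deposited is that of the median probe set. The 7 oocyte marker genes on the array, among them ZP2, ZP4 and H1FOO, all passed the filter and had a summed signal of 22801 to 23254 on adult and 20715 to 23878 on prepubertal arrays, much of it from PTTG1 (13066 in adult and 12553 in prepubertal oocytes). Of these, 0 passed the adjusted threshold in limma. The lowest difference was that of GDF9, at −0.58 (unadjusted p = 0.0446, adjusted p = 0.327; −0.31 with quantile normalization). Unadjusted p-values under 0.05 numbered 1 lower as deposited and 2 higher with quantile normalization. The 35 cumulus and granulosa marker probe sets summed to 536 to 653 and 518 to 562, with FSHR at mean signals of 3.10 and 2.80 and 7 of the 35 bright enough to be tested. Of the latter 0 passed in limma (0 at an unadjusted p under 0.05). FST was at 128 in adult and 92.0 in prepubertal oocytes (−0.41 and −0.19 in the 2 settings, without overlap in either). INHBA was at 126 in adult and 100.3 in prepubertal oocytes (−0.28 and −0.066). LHCGR went the other way, at 13.8 in adult and 24.5 in prepubertal oocytes (0.52 and 0.57, without overlap in either). Over the 7 tested cumulus and granulosa probe sets the median difference was 0.024 and 0.16, with 3 and 2 below 0. The 8 blood and immune probe sets summed to 339.7 to 522 on adult and 193 to 413 on prepubertal arrays, mostly from HBB. The 9 theca and stroma probe sets summed to 102 to 178 and 87.4 to 119. The 12 endothelial ones summed to 168 to 189.6 and 137 to 182. The stromal collagen gene COL3A1 was at 41.2 in adult and 16.2 in prepubertal oocytes, without overlap in either setting (−0.85, unadjusted p = 0.00969, limma adjusted p = 0.214; −0.74 and adjusted p = 0.384 with quantile normalization). The other tested theca and stroma probe sets, of COL1A2 and DCN, differed by 0.045 and 0.10 as deposited. With quantile normalization they differed by 0.18 and 0.19, and COL1A2 was then higher in prepubertal oocytes without overlap. The part of cumulus, blood, stromal and endothelial cells in any result was not tested.

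Of the 81 probe sets, 57 of 41 genes were bright enough to be tested, having a mean log2(signal + 16) at or above the median of all probe sets. The other 24 had mean signals of 3.08 to 16.02 over the 6 arrays, and 8 genes (EED, HDAC5, HDAC11, KAT5, KDM5C, SIRT5, SIRT6 and SUPT16H) had no tested probe set. Among these, SIRT5, a mitochondrial deacylase, had signals of 8.85, 2.69 and 11.9 in adult and 20.9, 13.4 and 26.7 in prepubertal oocytes. A dim probe set of PRMT5 had 1.66, 2.43 and 3.22 in adult and 7.57, 15.5 and 12.9 in prepubertal oocytes. Both were without overlap but too close to background for a test.

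As deposited, 0 of the 57 tested probe sets passed an adjusted p of 0.05 in limma, where 0.475% of all tested probe sets did (0.442% with lower and 0.0333% with higher prepubertal values). At an unadjusted p under 0.05, 12 (21.1%) had lower values in prepubertal oocytes, against 13.6% of all tested probe sets, and 2 (3.51%) had higher values, against 1.14%. The groups did not overlap in 12 probe sets with lower and 2 with higher values (21.1% and 3.51%, against 17.1% and 1.81% of all). With quantile normalization 1 passed, a probe set of the histone chaperone gene SET, where 0.117% of all tested probe sets passed, 0.0917% with lower and 0.025% with higher values. At an unadjusted p under 0.05 there were then 3 lower and 5 higher (5.26% and 8.77%, against 5.79% and 5.06%), and 4 lower and 7 higher without overlap (7.02% and 12.3%, against 8.77% and 7.54%). The median log2 difference of the members was −0.21 as deposited and 0.011 with quantile normalization, beside −0.20 and −0.0073 for all tested probe sets.

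**Figure D1:**
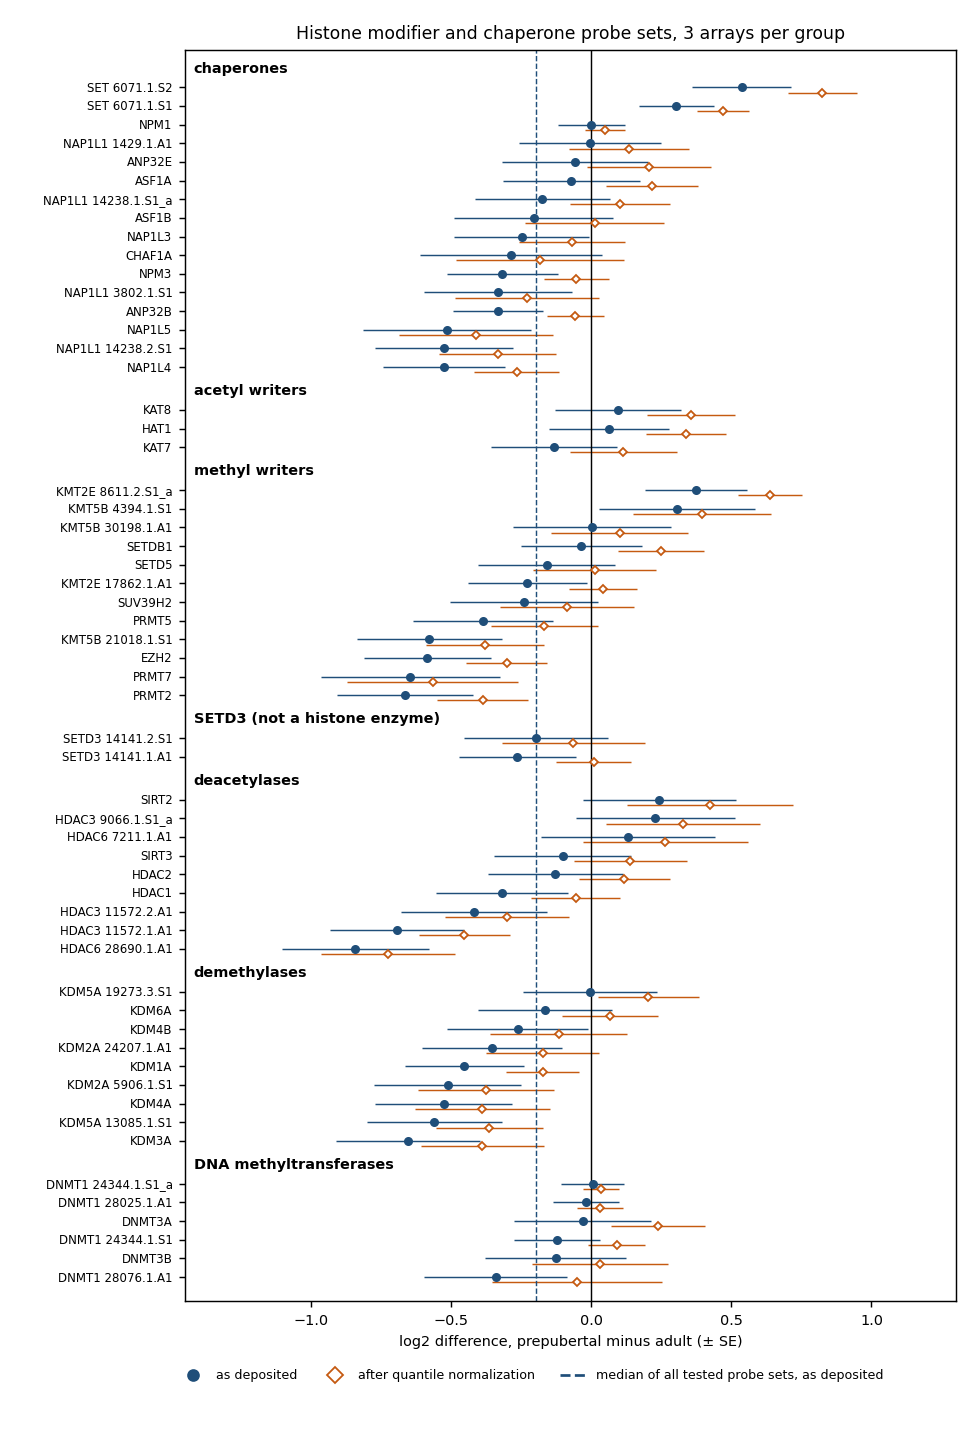
Log2 difference of each of the 57 tested probe sets, prepubertal minus adult, with its standard error from limma (3 arrays per group), as deposited (filled circles) and with quantile normalization (open diamonds), ordered within role classes; genes with several tested probe sets carry the probe set's number. The dashed line marks the median of all tested probe sets as deposited (−0.20); both SET probe sets lie to the right of 0 in both settings, and all 9 demethylase probe sets lie left of 0 as deposited.

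Among the histone chaperones, SET stood higher in prepubertal oocytes on both of its probe sets. SET binds histones and shields their tails from acetyltransferases, and it also inhibits protein phosphatase PP2A. Its probe set Ssc.6071.1.S2_at had signals of 1342, 1267 and 1221 in adult and 1939, 1763 and 1872 in prepubertal oocytes. The lowest prepubertal array lay above the highest adult array, and the spread within each group was small (1277 ± 61.3 in adult and 1858 ± 88.9 in prepubertal oocytes; SD, n = 3). The log2 difference was 0.54 ± 0.18 (SE), 1.45-fold higher, with a limma adjusted p of 0.189 as deposited. With quantile normalization the values were 1042, 1321 and 1103 in adult and 1869.5, 2151 and 2136 in prepubertal oocytes, the difference was 0.82 ± 0.12 (1.77-fold), and SET passed with a limma adjusted p of 0.0375, against 0.00956 to 0.518 over its 22 alternatives.

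The other SET probe set, Ssc.6071.1.S1_at, from the same transcript cluster, had signals of 5569, 5252 and 5108 in adult and 7030.0, 6515 and 6146 in prepubertal oocytes, again without overlap. Its log2 difference was 0.30 ± 0.13 (limma adjusted p = 0.305) as deposited and 0.47 ± 0.09 (adjusted p = 0.0607) with quantile normalization, so it did not pass in either (0.0319 to 0.587 over its 22 alternatives). In those 22 settings, SET had higher values in prepubertal oocytes on both probe sets. The first probe set passed in 5 of these, among them scaling to a common trimmed mean (log2 difference 0.80, adjusted p = 0.0406). With quantile normalization its adjusted p ranged from 0.00956 to 0.160 when single arrays were left out, and it passed in 1 of these 6 fits, the one without prepubertal replicate 1. Prepubertal replicate 1 had the highest trimmed mean of its group.

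The SET probe sets were the only chaperone probe sets with higher values at an unadjusted p under 0.05 in limma, 2 of 16 in both settings, where 1.14% and 5.06% of all tested probe sets were higher at that p. NAP1L4, of the nucleosome assembly protein family that carries histones H2A and H2B, had signals of 427, 348 and 397 in adult and 266, 281 and 251 in prepubertal oocytes. The groups did not overlap, and the log2 difference was −0.53 ± 0.22 as deposited (limma adjusted p = 0.277) and −0.27 ± 0.15 with quantile normalization (adjusted p = 0.544), where the groups overlapped. Its relative NAP1L1 was measured by 4 tested probe sets, with differences of −0.53, −0.33, −0.17 and −0.0040 as deposited, of which the latter pair turned to 0.10 and 0.13 with quantile normalization. NAP1L3 and NAP1L5 had differences of −0.25 and −0.52 (−0.069 and −0.41 with quantile normalization).

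ANP32B, an acidic nuclear protein that binds histones, had signals of 4271, 3671 and 3677 in adult and 3463, 3122 and 2655 in prepubertal oocytes. These did not overlap as deposited (−0.33 ± 0.16, limma adjusted p = 0.336), but the difference was −0.057 with quantile normalization. NPM3, of the nucleoplasmin family of histone chaperones, showed the same, with 1206, 963 and 1118 in adult and 948, 768 and 910.4 in prepubertal oocytes. Its differences were −0.32 and −0.054. NPM1, nucleophosmin, was bright and level, at 9967 ± 564 in adult and 9965 ± 474 in prepubertal oocytes (SD, n = 3), with a log2 difference of 0.00 ± 0.12 as deposited and 0.049 ± 0.07 with quantile normalization. Its signal is close to the brightest on the arrays (14469 to 17339), where a difference may be compressed; this was not tested. The chaperones of H3 and H4 differed by less than their errors as deposited: ASF1A by −0.071 ± 0.24, ASF1B by −0.21 ± 0.28 and CHAF1A, the large subunit of chromatin assembly factor 1, by −0.29 ± 0.32. With quantile normalization ASF1A turned to 0.22 ± 0.16, ASF1B stood at 0.011 ± 0.25 and CHAF1A at −0.18 ± 0.30. ANP32E, which removes the variant H2A.Z from nucleosomes, differed by −0.059 ± 0.26 as deposited and turned to 0.21 ± 0.22 with quantile normalization. Over the 16 tested chaperone probe sets the median was −0.23 as deposited and −0.021 with quantile normalization, with 13 of 16 and 8 of 16 below 0.

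**Figure D2:**
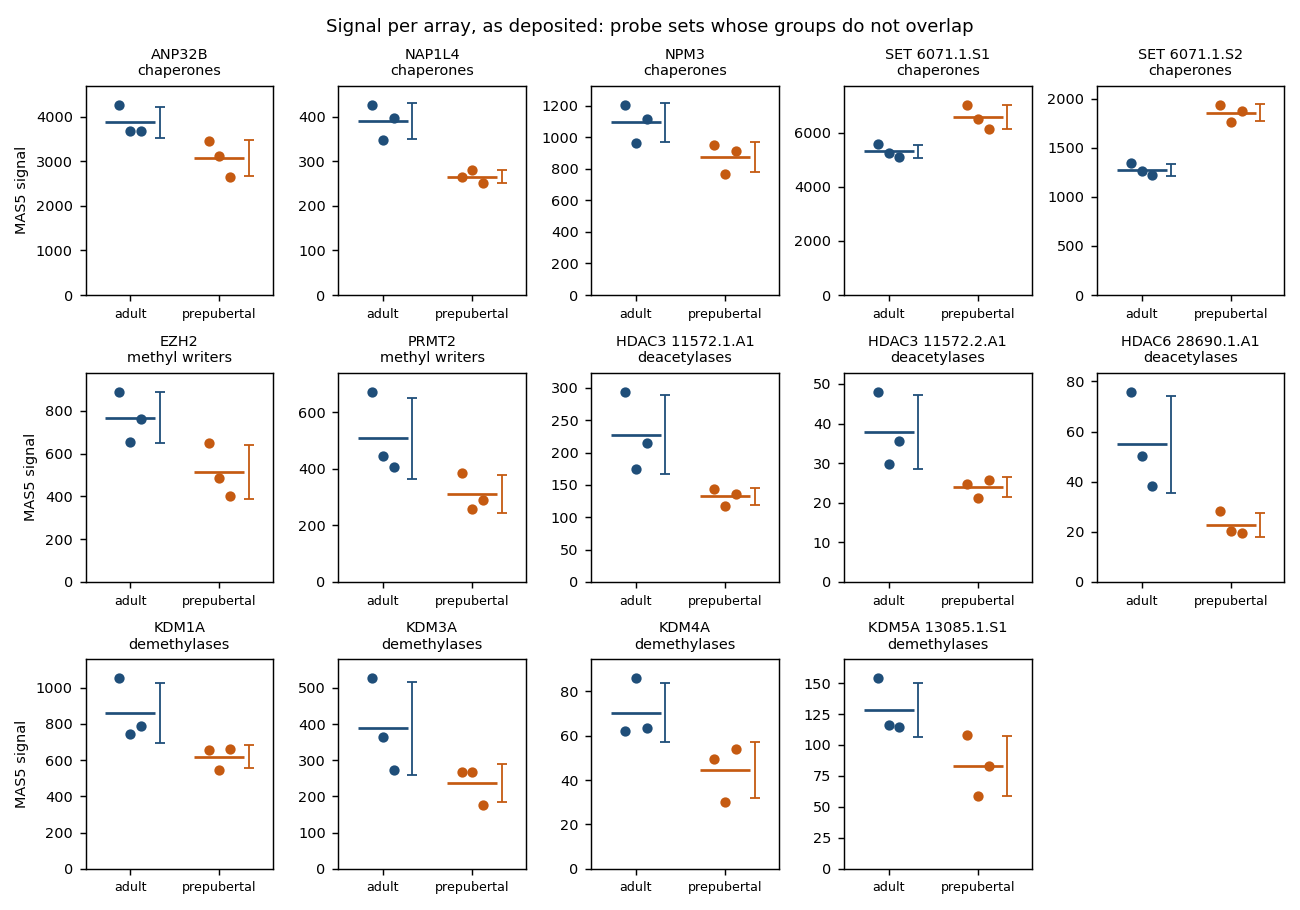
MAS5 signal on each array, as deposited, for the 14 tested probe sets whose groups did not overlap; points are arrays, lines are group means and bars are SD (n = 3), and each panel has its own axis starting at 0. The SET probe sets are the ones with higher prepubertal values; in most others adult replicate 1, the first adult point, is the highest, and it is also the array with the highest trimmed mean (161).

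All 3 tested acetyl writer probe sets lay above the median difference of all tested probe sets in both settings. HAT1, which acetylates newly made histone H4 before it is packed, had signals of 627, 577 and 645 in adult and 732, 515 and 706 in prepubertal oocytes, a log2 difference of 0.063 ± 0.21 (limma adjusted p = 0.912). KAT8, an acetyltransferase of histone H4, had 255, 182 and 202 in adult and 229.7, 229.8 and 221 in prepubertal oocytes (0.10 ± 0.23, adjusted p = 0.871), the adult arrays spreading on both sides of the tight prepubertal ones. With quantile normalization neither gene's groups overlapped and the differences were 0.34 ± 0.14 and 0.36 ± 0.16, with unadjusted p of 0.0349 and 0.0431 but limma adjusted p of 0.414 and 0.444. KAT7, which acetylates histone H3 and H4, differed by −0.13 ± 0.23 as deposited and 0.11 ± 0.19 with quantile normalization. With only 3 tested probe sets, the class median was 0.063 and 0.34 in the 2 settings.

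The methyl writers went both ways. KMT2E, a SET-domain protein that binds methylated histone H3, had the highest difference on probe set Ssc.8611.2.S1_a_at, with signals of 3352, 2022 and 2830.5 in adult and 3866, 3447 and 3139 in prepubertal oocytes. Adult replicate 1 overlapped with the prepubertal arrays, and the difference was 0.37 ± 0.18 as deposited (limma adjusted p = 0.346). With quantile normalization the values were 2697, 2099.9 and 2579 in adult and 3769, 4153 and 3547 in prepubertal oocytes, without overlap, and the difference of 0.64 ± 0.11 (1.56-fold) just missed the threshold (limma adjusted p = 0.0530; 0.0282 to 0.603 over 22 alternatives). Another bright KMT2E probe set did not follow, with 1077, 753 and 1011 in adult and 923, 669 and 819 in prepubertal oocytes and differences of −0.23 ± 0.21 and 0.041 ± 0.12, so the signs of the KMT2E probe sets were opposite as deposited and both positive with quantile normalization.

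EZH2, the catalytic subunit of Polycomb repressive complex 2, which methylates histone H3 at silenced genes, had lower values, with signals of 889.9, 653 and 762 in adult and 652, 484 and 402 in prepubertal oocytes. The groups did not overlap in either setting, although the highest prepubertal and the lowest adult array differed by little as deposited. The log2 difference was −0.59 ± 0.23 (limma adjusted p = 0.251) as deposited and −0.30 ± 0.14 (adjusted p = 0.477) with quantile normalization. Its partner EED could not be set beside it, since both EED probe sets were dim. PRMT2, an arginine methyltransferase, had 673, 444 and 405 in adult and 386, 257 and 289 in prepubertal oocytes, a log2 difference of −0.66 ± 0.24 (1.59-fold, adjusted p = 0.227). With quantile normalization it was −0.39 ± 0.16 (adjusted p = 0.414), and the groups overlapped.

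The other arginine methyltransferases were PRMT5, at −0.39 as deposited and −0.17 with quantile normalization, and PRMT7, at −0.65 and −0.57 with mean signals of only 25.7 in adult and 11.7 in prepubertal oocytes. KMT5B, which methylates histone H4, had 3 tested probe sets. One, with 190.4, 95.8 and 118 in adult and 99.8, 58.0 and 92.0 in prepubertal oocytes, differed by −0.58 ± 0.26 (limma adjusted p = 0.311). The others differed by 0.0033 and 0.30, and with quantile normalization the 3 were at −0.38, 0.10 and 0.39. The enzymes that methylate histone H3 for heterochromatin differed by less than their errors as deposited: SETDB1 was at −0.036 ± 0.22 and SUV39H2 at −0.24 ± 0.26 as deposited (0.25 and −0.086 with quantile normalization). SETD5, another SET-domain protein, was at −0.16 ± 0.24 (0.012 with quantile normalization). Over the 12 methyl writer probe sets the median was −0.23 and −0.037, with 9 and 6 below 0. SETD3 matches the name pattern but methylates actin, so it was left out of the classes. All other members were classed by symbol. KMT2E therefore counts as a methyl writer, and HDAC6, SIRT2 and SIRT3 count as erasers, whatever their main substrate or place in the cell. The SETD3 values are given apart. SETD3 probe sets differed by −0.26 and −0.20 as deposited (0.0087 and −0.064 with quantile normalization).

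Erasers had lower medians than writers and chaperones in both settings. Of their 18 tested probe sets 15 were below 0 as deposited (83.3%, against 74.8% of all tested) and 11 with quantile normalization (61.1%, against 51.1%), with medians of −0.34 and −0.14. The groups did not overlap in 7 probe sets as deposited (38.9%) and 3 with quantile normalization (16.7%), in each setting with lower prepubertal values, against 17.1% and 8.77% of all tested probe sets. None of the 18 passed the adjusted threshold in limma, and 6 and 2 (33.3% and 11.1%) were lower at an unadjusted p under 0.05, against 13.6% and 5.79% of all. These shares describe the list and were not tested against other genes. Within the erasers the medians in the 2 settings were −0.45 and −0.17 for demethylases but −0.13 and 0.12 for deacetylases. The deacetylase medians lay above those of all tested probe sets (−0.20 and −0.0073). Without prepubertal replicate 1, 658 of all 12000 tested probe sets passed as deposited, and 3 of the 57 tested members did, a similar share. These members were HDAC6 (limma adjusted p = 0.0450) and, among the methyl writers, PRMT2 (0.0409) and EZH2 (0.0416). With quantile normalization the same omission gave 202 passing probe sets of 12000, among them 3 of the 57 members, both of SET and KMT2E (0.0282).

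HDAC3, the deacetylase of the NCOR and SMRT corepressor complexes, had signals of 294, 175 and 214 in adult and 144, 117 and 136 in prepubertal oocytes on probe set Ssc.11572.1.A1_at. All prepubertal arrays lay below all adult ones in both settings. The log2 difference was −0.69 ± 0.24 (1.62-fold, unadjusted p = 0.00812, limma adjusted p = 0.203) as deposited and −0.45 ± 0.16 (1.37-fold, adjusted p = 0.333) with quantile normalization. Another probe set of the same transcript cluster had 48.1, 29.7 and 35.6 in adult and 24.8, 21.1 and 25.8 in prepubertal oocytes, also without overlap (−0.42 ± 0.26, adjusted p = 0.461; −0.30 with quantile normalization). The remaining tested one had 18.7, 24.1 and 20.5 in adult and 30.7, 37.9 and 16.5 in prepubertal oocytes and differed the other way without passing (0.23 ± 0.28, adjusted p = 0.735; 0.33 with quantile normalization).

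HDAC6, a mainly cytoplasmic enzyme that deacetylates tubulin, had the lowest difference of the tested members in both settings. Its signals were 75.9, 50.2 and 38.4 in adult and 28.3, 20.3 and 19.7 in prepubertal oocytes, low on the scale of the arrays but without overlap in either setting. The difference was −0.84 ± 0.26 (1.79-fold, limma adjusted p = 0.169) as deposited and −0.73 ± 0.24 (adjusted p = 0.299) with quantile normalization. The only other tested HDAC6 probe set, with 41.7, 9.81 and 23.0 in adult and 27.1, 35.4 and 18.5 in prepubertal oocytes, differed by 0.13 ± 0.31 (0.26 with quantile normalization), and 5 more were too dim to test. HDAC1 and HDAC2, the closely related deacetylases of the SIN3, NuRD and CoREST complexes, both had overlapping groups. HDAC1 had 356, 237 and 230.3 in adult and 234, 195 and 210.3 in prepubertal oocytes. HDAC2 had 272, 176 and 183 in adult and 226, 169 and 172 in prepubertal oocytes. The differences were −0.32 ± 0.24 and −0.13 ± 0.24 as deposited and −0.056 and 0.12 with quantile normalization. Among the NAD-dependent sirtuins, SIRT2 of the cytoplasm differed by 0.24 ± 0.27 and SIRT3 of the mitochondria by −0.10 ± 0.25, with overlapping groups. With quantile normalization they were at 0.42 ± 0.30 and 0.14 ± 0.20, so that SIRT3 turned sign. The deacetylase median was −0.13 as deposited and 0.12 with quantile normalization.

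All 9 tested demethylase probe sets, of 7 genes, had negative differences as deposited, from −0.65 to −0.0058, and 7 of 9 with quantile normalization. KDM3A, which removes methyl groups from histone H3 in silent chromatin, had 526, 365 and 273 in adult and 267, 266 and 176 in prepubertal oocytes. The groups were separated by a narrow gap, with a difference of −0.65 ± 0.26 (1.57-fold, limma adjusted p = 0.256) as deposited and −0.39 ± 0.22 (adjusted p = 0.541) with quantile normalization. KDM1A, the lysine demethylase LSD1 that works with HDAC1 and HDAC2 in the CoREST complex, had 1051, 746 and 786 in adult and 653, 545 and 659 in prepubertal oocytes, a difference of −0.45 ± 0.21 (adjusted p = 0.325) as deposited and −0.17 ± 0.13 with quantile normalization. KDM4A had 62.0, 85.8 and 63.4 in adult and 49.3, 30.3 and 53.8 in prepubertal oocytes (−0.53 ± 0.24, adjusted p = 0.322; −0.39 with quantile normalization). Its relative KDM4B, with overlapping groups, differed by −0.26 ± 0.25 (−0.12).

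KDM5A, which removes methyl groups typical of active promoters, was measured by a pair of tested probe sets that differed from each other. One had 154, 116 and 115 in adult and 108, 59.1 and 82.7 in prepubertal oocytes, without overlap and with a difference of −0.56 ± 0.24 (limma adjusted p = 0.294; −0.36 with quantile normalization). The other had 135, 87.7 and 88.6 in adult and 125, 84.5 and 98.3 in prepubertal oocytes and a difference of −0.0058 ± 0.24, which turned to 0.20 ± 0.18 with quantile normalization. Both KDM2A probe sets had lower means, at −0.51 ± 0.26 and −0.35 ± 0.25 (−0.37 and −0.17 with quantile normalization), with overlapping groups. KDM6A, which opposes EZH2 by removing its mark, had 174, 106 and 152 in adult and 152, 110.0 and 114 in prepubertal oocytes, a difference of −0.17 ± 0.24 as deposited and 0.068 ± 0.17 with quantile normalization. The demethylase median was −0.45 and −0.17. By array, the class level with quantile normalization, in log2 units relative to the probe sets' 6-array means, was 0.080, 0.076 and 0.058 on the adult and −0.089, −0.12 and −0.062 on the prepubertal arrays. The groups did not overlap in that level, although no single demethylase reached an unadjusted p under 0.05 in limma there (lowest adjusted p 0.514).

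On 5 of 6 tested DNA methyltransferase probe sets the difference as deposited was nearer to 0 than the median of all tested probe sets. DNMT1, which copies methylation onto new DNA strands and is stored in quantity by oocytes, had signals of 12351, 11614 and 12026 in adult and 12579.7, 11263 and 12295 in prepubertal oocytes on probe set Ssc.24344.1.S1_a_at, near the top of the scale. The 4 tested DNMT1 probe sets differed by 0.0047, −0.019, −0.12 and −0.34 as deposited (limma adjusted p from 0.545 to 0.990) and by 0.035, 0.031, 0.090 and −0.051 with quantile normalization. The last of these had 1226, 2012 and 3459 in adult and 1797, 1709.7 and 1361 in prepubertal oocytes: adult replicate 3 lay well above adult replicate 1, and all prepubertal arrays fell between them. DNMT3A, which sets new methylation during oocyte growth, had 343, 284 and 379 in adult and 454, 250.4 and 303 in prepubertal oocytes (−0.031 ± 0.24 as deposited, 0.24 ± 0.17 with quantile normalization). DNMT3B was dim, with 43.4, 50.9 and 45.9 in adult and 27.3, 44.2 and 56.3 in prepubertal oocytes (−0.13 ± 0.25 as deposited, turning to 0.031 ± 0.24 with quantile normalization).

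The role classes were set against each other within each array, which removes the array's overall level to a first approximation. The level of a class on an array was the median over its tested probe sets of the log2 value minus that probe set's mean over the 6 arrays. Erasers minus chaperones was 0.13, 0.064 and 0.044 on the adult and −0.23, −0.040 and −0.12 on the prepubertal arrays, as deposited. It was 0.14, 0.092 and 0.062 on the adult and −0.24, −0.0036 and −0.12 on the prepubertal arrays, with quantile normalization. The groups did not overlap in either setting. Erasers minus writers was 0.25, 0.12 and 0.041 on the adult and −0.15, 0.088 and −0.20 on the prepubertal arrays, with overlap, as deposited. It was 0.19, 0.12 and 0.048 on the adult and −0.10, 0.044 and −0.20 on the prepubertal arrays, with a narrow gap, with quantile normalization. Writers minus chaperones was −0.12, −0.059 and 0.0034 on the adult and −0.085, −0.13 and 0.076 on the prepubertal arrays as deposited, and the groups overlapped in both settings. The eraser class joins 9 deacetylase and 9 demethylase probe sets, and these did not move alike. With quantile normalization the deacetylase level was 0.22, 0.072 and −0.18 on the adult and −0.074, 0.059 and −0.11 on the prepubertal arrays, with overlap. The demethylase levels, given above, did not overlap. The writers split as well. Levels of the 3 acetyl writer probe sets were −0.15, −0.043 and −0.25 on the adult arrays with quantile normalization. On the prepubertal arrays they were 0.013, 0.20 and 0.17, without overlap and in the other direction. The methyl writer levels overlapped there. No p is given for these class levels, since the genes were grouped with results of these arrays known.

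**Figure D3:**
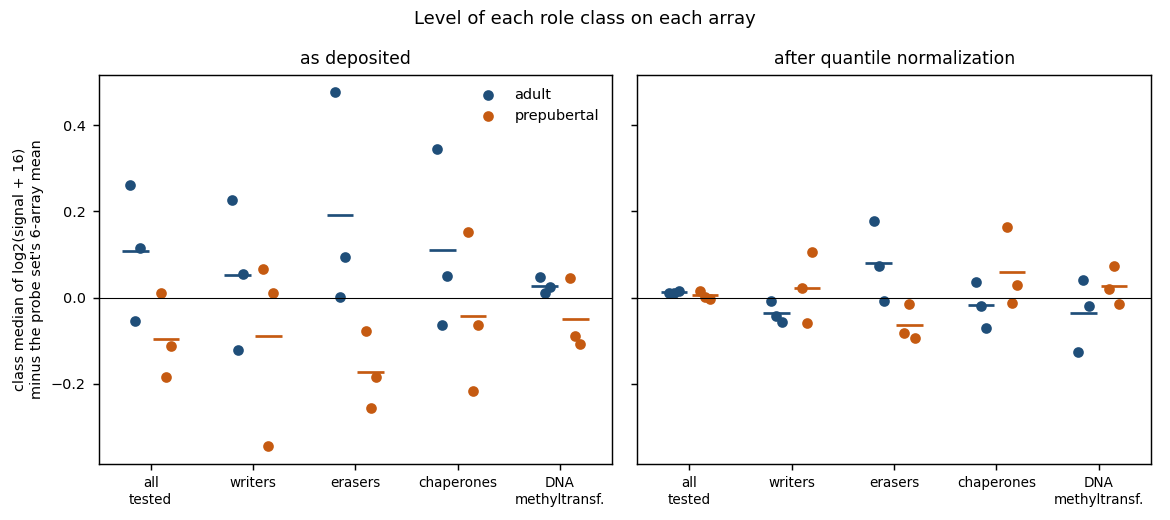
Level of each role class on each array, in log2 units, as deposited (left) and with quantile normalization (right); points are arrays and lines are group means (n = 3). As deposited every class is highest on adult replicate 1, as are all tested probe sets. With quantile normalization the eraser arrays remain lower in prepubertal oocytes by a narrow gap (0.18, 0.072 and −0.0086 on the adult and −0.081, −0.015 and −0.094 on the prepubertal arrays). Of the erasers, the deacetylases taken alone overlap between the groups there and the demethylases do not. Writers, chaperones and DNA methyltransferases overlap. Within the writers, not drawn apart, the methyl writers overlap there and the 3 acetyl writer probe sets do not, with higher prepubertal levels.

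Partner proteins outside the name patterns were listed by role to see the complexes in which these enzymes act. Of all 12000 tested probe sets, 0.475% passed in limma as deposited and 0.117% with quantile normalization. At an unadjusted p under 0.05, 13.6% of all were lower and 1.14% higher as deposited, and 5.79% and 5.06% with quantile normalization. Their medians were −0.20 and −0.0073. The lists were not tested against these shares. Of the 28 tested probe sets of other erasers and corepressor subunits, 1 passed as deposited and 0 with quantile normalization (5 lower at an unadjusted p under 0.05 as deposited, and 2 lower and 1 higher with quantile normalization; limma), with medians of −0.29 and −0.079. The called one was ARID4A, a subunit of the SIN3 deacetylase complex, with 1766, 1407 and 1503 in adult and 1032, 647 and 778 in prepubertal oocytes on its most different probe set (−0.93 ± 0.21, limma adjusted p = 0.0441; −0.66 ± 0.12 and 0.0563 with quantile normalization). The other 3 ARID4A probe sets differed by −0.42, −0.16 and −0.14 as deposited without passing. With quantile normalization they were at −0.25, 0.0058 and 0.14, so the latter pair turned sign. NCOR1, the corepressor that binds and activates HDAC3, had 38.6, 29.4 and 52.9 in adult and 26.8, 3.62 and 2.99 in prepubertal oocytes on a dim probe set. Its difference there was −1.14 ± 0.33 (limma adjusted p = 0.131) as deposited and −1.05 ± 0.34 (0.291) with quantile normalization. The other tested NCOR1 probe set was brighter, at 619 in adult and 558 in prepubertal oocytes. It differed by −0.15 as deposited and turned to 0.13 with quantile normalization. When single arrays were left out, the adjusted p of ARID4A ranged from 0.000787 to 0.256 as deposited, and NCOR1 passed without prepubertal replicate 1 (0.00530).

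Of 33 tested probe sets of other writers and their subunits, 0 passed in either setting in limma. At an unadjusted p under 0.05, 3 were lower as deposited and 2 higher with quantile normalization, where 13.6% and 5.06% of all tested probe sets were. The medians were −0.24 and 0.017, beside −0.20 and −0.0073 for all tested probe sets. ASH2L, a core subunit of the complexes that methylate histone H3 at promoters, had 647, 551 and 562 in adult and 462, 307 and 444 in prepubertal oocytes (−0.54 ± 0.22, adjusted p = 0.278; −0.26 with quantile normalization). TADA2A, a subunit of acetyltransferase complexes, had 6337, 4888 and 5499.5 in adult and 4657, 4385 and 4116 in prepubertal oocytes (−0.34 ± 0.15, adjusted p = 0.296; −0.11 with quantile normalization). Of 18 tested probe sets of other histone chaperones, 0 passed (2 and 1 lower at an unadjusted p under 0.05 in the 2 settings; medians −0.26 and −0.027). VPS72, a chaperone of H2A.Z, had 104, 93.0 and 85.1 in adult and 50.3, 64.9 and 38.9 in prepubertal oocytes (−0.72 ± 0.23, adjusted p = 0.181; −0.55 with quantile normalization), and MCM2, a helicase subunit that also holds H3 and H4, differed by −0.46 ± 0.22 (−0.19) and passed only without prepubertal replicate 1 when single arrays were left out (adjusted p = 0.0356). Of 6 tested probe sets of other DNA methylation genes 0 passed in limma (0 and 2 at an unadjusted p under 0.05 in the 2 settings). The latter were TRDMT1 and APEX1, higher by 0.45 and 0.38 with quantile normalization and by 0.17 and 0.10 as deposited. MBD2, which binds methylated DNA, and GADD45A differed by −0.38 ± 0.22 and 0.26 ± 0.27 as deposited. With quantile normalization they were at −0.10 and 0.45 (limma unadjusted p = 0.480 and 0.0627). The other MBD2 probe sets were at −0.041 and 0.13 as deposited and at 0.064 and 0.25 with quantile normalization.

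**Figure D4:**
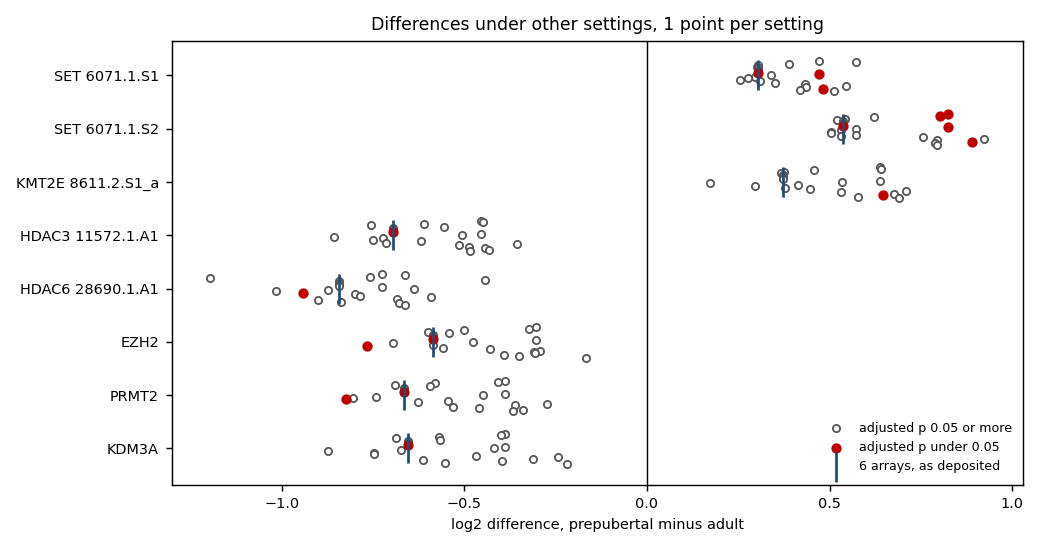
Log2 difference of 8 probe sets of SET, KMT2E, HDAC3, HDAC6, EZH2, PRMT2 and KDM3A, genes picked for display. Each probe set had a limma unadjusted p under 0.05 in at least 1 of the main settings, as did other members not shown. Points are up to 22 other settings (other scalings, added constants, filters, variance models, the replicate block and leaving out single arrays). Red points passed a limma adjusted p of 0.05 and the vertical bars mark all 6 arrays as deposited. No point of these probe sets crosses 0, and SET passed in the most settings. HAT1 and KAT8, not shown, had such a p with quantile normalization and did cross 0 (−0.027 to 0.42 and −0.0042 to 0.44 over their alternatives).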

How the data were processed

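Polyadenylated RNA of mature pig oocytes was amplified in 2 cycles and hybridized to Affymetrix porcine arrays, 3 per group, per the labels' protocols. The authors deposited signal values, which the submitters' processing notes credit to MAS5; of the MAS5 version and scaling, neither is given in the sources used here. Signals were taken as log2(signal + 16), as deposited and with quantile normalization. Control probe sets and those with a mean log2 value below the median were left out of testing, leaving 12000 of 23999. The test was limma's (version 3.58.1 under R 4.3.3, eBayes with an intensity trend and no block, 2-sided), prepubertal minus adult, with Benjamini-Hochberg adjustment over all 12000 and a threshold of 0.05; the script was tested on simulated data. Symbols came from GEO's platform annotation, which can be old; 80 of 81 member probe sets matched an Entrez identifier in RefSeq, and 1 probe set with several symbols was left out. The members, role classes and related lists were chosen with earlier results of these data known. Genes were named where they passed, were among the 10 smallest p in either setting, or were among the 2 brightest of their class. Those with the highest or lowest difference of their class were named too, and all tested probe sets of the genes so named. From each related list the 2 smallest p as deposited were named, and for DNA methylation also the 2 smallest with quantile normalization. Other members are given by value. Groups not overlapping means that every array of one group lay above every array of the other. Scalings, constants, filters, the variance trend, a replicate block and single arrays left out were the alternatives tried.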

Additional observations from a re-analysis of the deposited data

How the results depend on the processing

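The limits are those of 6 arrays: 3 against 3 gave an exact test no p below 0.1, dim probe sets and those near the top of the scale could hide differences, and whether an array pools many oocytes is not stated. In place of 57, the tested probe sets that passed numbered 14 with quantile normalization, 20 with a common trimmed mean, 7 with median centring, 15 with an added constant of 1, 1 with no filter, 133 with a filter at the 65th percentile and 1 without a variance trend. Leaving out single arrays gave 3 to 658 called probe sets as deposited and 0 to 202 with quantile normalization (the most without prepubertal replicate 1). Called members numbered 0 to 3 in each setting. Members called numbered 0 as deposited, 1 with quantile normalization and 1 with a common trimmed mean, each time SET. Class medians with quantile normalization were −0.14 for erasers, −0.021 for chaperones and 0.033 for DNA methyltransferases. With a common trimmed mean they were 0.058 for writers, −0.10 for erasers, 0.0045 for chaperones and 0.18 for DNA methyltransferases, which median centring put at 0.0075. Without single arrays the writer median ranged from −0.20 to −0.049 as deposited and from −0.0023 to 0.084 with quantile normalization. In the same 2 settings the eraser median ranged from −0.41 to −0.23 and from −0.14 to −0.10. The chaperone median ranged from −0.37 to −0.10 and from −0.052 to 0.053. That of DNA methyltransferases ranged from −0.15 to −0.015 and from 0.010 to 0.092. Among the probe sets followed through all alternatives, the sign turned for a KMT2E, KDM5A, DNMT1, KAT7, further DNMT1 and HDAC2 probe set. They turned to 0.041, 0.20, 0.090, 0.11, 0.031 and 0.12 with quantile normalization and to 0.035, 0.23, 0.14, 0.11, 0.25 and 0.12 with a common trimmed mean. Members not so followed, such as ASF1A, ANP32E, SIRT3, KDM6A, SETDB1 and DNMT3A, also turned with quantile normalization, as given above. Median centring turned that KDM5A and the further DNMT1 to 0.079 and 0.066, and a constant of 64 turned a KMT5B probe set to −0.00069; the causes were not tested. Leaving out single arrays turned the sign within a setting for that KMT2E and KDM5A, for HDAC2 and for the 4 DNMT1 probe sets. It did so too for NPM1, KAT8, HAT1, HDAC1, the HDAC6 probe set with the higher prepubertal mean, GADD45A and that KMT5B. KMT2E, HDAC1 and the DNMT1 probe set at −0.25 to 0.16 turned with quantile normalization only. KAT7 turned in neither setting, at −0.23 to −0.081 as deposited and 0.015 to 0.26 with quantile normalization. Pooled over both settings the ranges were NPM1 −0.048 to 0.070, KMT2E −0.38 to 0.092, KDM5A −0.14 to 0.29 and KAT8 −0.0042 to 0.44. They were HAT1 −0.027 to 0.42, HDAC1 −0.42 to 0.039, HDAC2 −0.25 to 0.21 and HDAC6 −0.16 to 0.49. Those of KMT5B and GADD45A were −0.12 to 0.17 and −0.060 to 0.59. The 4 DNMT1 probe sets were at −0.027 to 0.052, −0.25 to 0.16, −0.066 to 0.088 and −0.71 to 0.32. The symbols updated through Entrez identifiers gave the same members.

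Replicate numbers are shared between the groups, and deviations from the group means correlated at 0.11, 0.058 and 0.029 for numbers 1, 2 and 3. The main fits did not pair the arrays by number, although all 6 arrays correlated best with their own number in the other group. Trimmed means by number were 161, 123 and 142 in adult and 132, 106 and 115 in prepubertal samples. They ranked alike in both groups, and at each number the prepubertal array was lower. Whether the numbers mark a shared batch is not stated in the labels and was not tested. With the replicate number as a block, 918 tested probe sets and 7 members passed (HDAC3, PRMT2, ANP32B, EZH2, KDM3A and both SET probe sets), as did the partner genes ARID4A, NCOR1, MCM2, ASH2L (adjusted p = 0.0437) and TADA2A (0.0342). With the block and quantile normalization together, 32 and 2 passed, the latter both of SET, and differences were those of quantile normalization alone.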
